A study of Homo sapiens with 12 samples.

Results

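The genes described here were 10 inflammatory mediators, namely the chemokines CXCL8, CXCL1, CXCL2, CXCL3 and CCL2, the cytokines IL6, IL11, LIF and IL1B, and PTGS2, which encodes the inducible cyclooxygenase. They were taken by symbol from the 43236 gene symbols of each count file, and they were selected on their rise in count under NXP800 at 6 h in these libraries. RNA was sequenced from HOS-MNNG cells, an established human osteosarcoma line (a chemically transformed derivative of HOS, also written MNNG/HOS) in culture. Cells received the vehicle DMSO or NXP800, a small molecule developed as an inhibitor of the HSF1 stress pathway and described as an activator of the integrated stress response. The concentration was 300 nM. Each of the 4 groups (DMSO 6 h, NXP800 6 h, DMSO 24 h, NXP800 24 h) had 3 libraries. The question was whether the rise at 6 h was transient.

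Chemokines of the CXC family such as CXCL8 and its neighbours CXCL1, CXCL2 and CXCL3 draw neutrophils to a site of injury through the receptors CXCR1 and CXCR2. IL6, IL11 and LIF are relatives that signal through the shared receptor subunit gp130 (encoded by IL6ST), and in bone they act on osteoblasts and osteoclasts. PTGS2 makes the precursor of prostaglandins. Such genes are typically switched on within hours by NF-kB, AP-1 and C/EBP transcription factors, and their mRNAs are short-lived.

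The promoters of these genes are printed because the factors named above act there and because several lists below hold those factors. Sequences for 8 of the 10 genes were present in the RefSeq promoter table (GRCh38.p14); CCL2 and LIF had no entry. Below are the 140 bases before the annotated start of 7 of these genes, 5′ to 3′ on the gene's strand. Capitals mark matches to an NF-kB consensus (CXCL1, CXCL2, CXCL3 and IL6) or to the AP-1 motif TGANTCA (CXCL8 and IL11), and the PTGS2 sequence has neither:
CXCL8, chr4:73740429-73740568, plus strand: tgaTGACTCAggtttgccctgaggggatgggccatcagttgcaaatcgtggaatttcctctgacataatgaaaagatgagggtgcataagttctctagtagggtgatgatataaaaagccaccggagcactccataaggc
CXCL1, chr4:73869253-73869392, plus strand: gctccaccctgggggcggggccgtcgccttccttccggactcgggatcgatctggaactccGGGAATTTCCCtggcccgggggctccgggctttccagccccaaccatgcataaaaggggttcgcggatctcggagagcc
CXCL2, chr4:74099196-74099335, minus strand: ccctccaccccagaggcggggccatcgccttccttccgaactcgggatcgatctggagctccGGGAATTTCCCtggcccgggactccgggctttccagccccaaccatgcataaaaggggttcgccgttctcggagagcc
CXCL3, chr4:74038690-74038829, minus strand: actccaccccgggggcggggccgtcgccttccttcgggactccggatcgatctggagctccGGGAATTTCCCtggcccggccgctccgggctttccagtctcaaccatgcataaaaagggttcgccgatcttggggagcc
IL6, chr7:22727060-22727199, plus strand: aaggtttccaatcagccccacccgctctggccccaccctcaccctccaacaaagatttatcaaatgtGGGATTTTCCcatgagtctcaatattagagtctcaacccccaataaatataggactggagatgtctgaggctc
IL11, chr19:55370464-55370603, minus strand: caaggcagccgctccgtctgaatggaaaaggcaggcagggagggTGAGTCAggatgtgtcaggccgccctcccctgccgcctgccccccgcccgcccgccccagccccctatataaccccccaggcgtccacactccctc
PTGS2, chr1:186680424-186680563, minus strand: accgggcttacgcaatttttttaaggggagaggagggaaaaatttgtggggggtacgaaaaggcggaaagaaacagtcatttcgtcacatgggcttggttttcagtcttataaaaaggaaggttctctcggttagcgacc

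The CXC chemokine genes lie on chromosome 4 and CCL2 on chromosome 17. CXCL8 lay at chr4:73740569-73743716 and CXCL1 at chr4:73869393-73871308, both on the plus strand, with CXCL3 at chr4:74036589-74038689 and CXCL2 at chr4:74097040-74099195 on the minus strand. The sequences before CXCL1, CXCL2 and CXCL3 each held the same NF-kB match at nearly the same distance, from position -79 to -69 (counted back from the start at -1) in CXCL1 and CXCL3 and from -78 to -68 in CXCL2. In IL6 the match lay from -73 to -64. The AP-1 match lay from -137 to -131 in CXCL8 and from -96 to -90 in IL11, and the letters TATAAA were found on the gene's strand from -31 to -26 in CXCL8 and from -32 to -27 in PTGS2. Over the 250 bases before the start, with both strands searched, the NF-kB consensus was present in 4 of the 8 promoters and in 9.96% of 35116 promoters, AP-1 in 2 of 8 and 6.57%, and the TATA letters in 2 of 8 and 10.7%. The printed bases before CXCL1, CXCL2 and CXCL3 are much alike, so the 4 promoters with the NF-kB consensus are not separate cases and no excess is read from them. The C/EBP-ATF composite TGATGNAA was found in 0 of 8 and in 3.14% of all promoters. A match describes letters and not a bound site, and the absence of one says nothing of the factor.

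**Figure D1:**
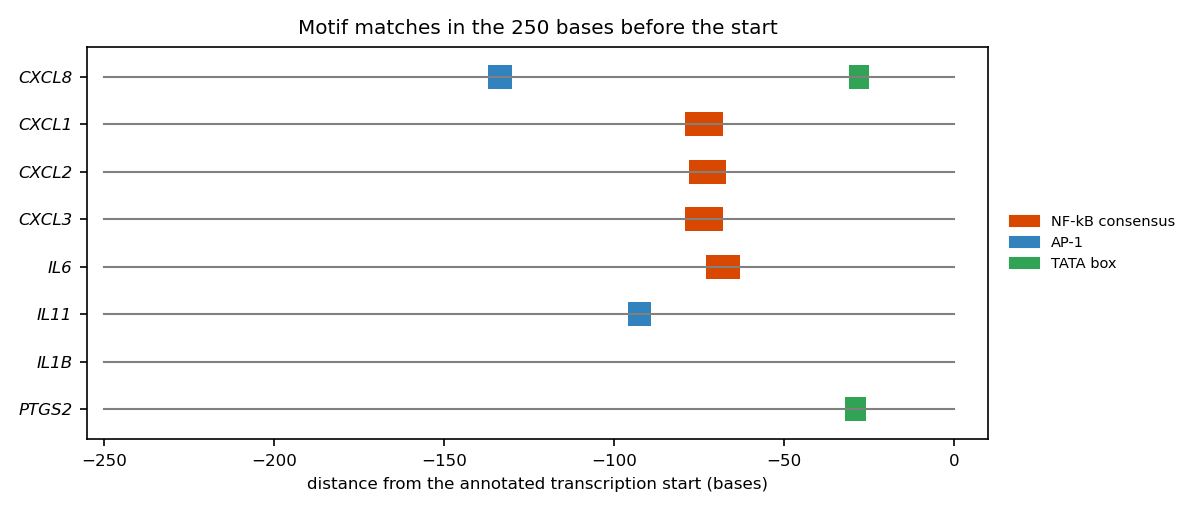
Positions of the motif matches in the 250 bases before the transcription start of the 8 genes with a promoter entry. The x axis gives the distance from the start in bases, each grey line is 1 promoter and each block is a match to the NF-kB consensus, AP-1 or TATA letters; CXCL1, CXCL2 and CXCL3 carry the NF-kB match within 1 base of the same place and IL1B carries no match.

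Each library held 30810614 to 31947656 read pairs counted on genes. The libraries of 6 h and of 24 h differed as sets, with 6.66 to 8.14% of pairs on no annotated feature at 6 h against 2.73 to 3.67% at 24 h, so a difference between the times cannot be told apart from one between the library sets, and NXP800 was compared with DMSO within each time. Counts were compared with edgeR's quasi-likelihood test over 15979 genes that passed a filter on low counts, with Benjamini-Hochberg adjustment, and a call means an adjusted p below 0.05. In this bulk RNA, fewer cells making a transcript and less of it per cell cannot be told apart. The cells carried the mesenchymal and bone-matrix genes VIM, SPARC and COL1A1, whose list summed to 3798 to 6766 CPM (counts scaled to library size), most of it VIM. COL1A2 and ALPL stayed at or below 12 counts in every library. The sum was 5031 to 5220 CPM in DMSO and 4195 to 4333 in NXP800 at 6 h, and 5915 to 6766 and 3798 to 4634 at 24 h. At 24 h SPARC (log2 fold change -2.02, SE 0.13), COL1A1 (-0.76, SE 0.16) and VIM (-0.48, SE 0.09) were lower under NXP800, and RUNX2 was higher (0.36, SE 0.11). Of the 10 immune markers, PTPRC, which marks all leukocytes, reached at most 5 counts, LYZ 2 and CD3E 1, while FCGR3A was at 0. CD14 reached 100 counts and was lower under NXP800 at both times (log2 -3.34, SE 0.43, and -2.07, SE 0.345). ITGAM reached 27 counts and was higher at 6 h (1.20, SE 0.32) and lower at 24 h (-1.55, SE 0.51). CSF1R reached 27 counts and was called at neither time. The summed level of the immune list was 62.4 to 80.6 CPM at 6 h, 71.4 to 94.2 CPM in DMSO at 24 h and 121 to 155 CPM in NXP800 at 24 h, where the lysosomal gene CD68 alone held 142 ± 19.5 CPM (SD, n = 3) and had risen (log2 fold change 0.90, SE 0.12). The endothelial list summed to 0.495 to 2.08 CPM and the epithelial list to 5.71 to 7.13 CPM, or 10.2 CPM in NXP800 at 24 h, with EPCAM higher there (log2 0.81, SE 0.10). The part of CD68 and EPCAM in the results at 24 h was not tested.

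At 6 h, all 8 genes with enough counts to test were higher under NXP800, by 3.71-fold for CXCL3 to 33.1-fold for CXCL8, and in each the 3 NXP800 libraries lay above the 3 DMSO libraries. How many of all tested genes had their groups apart in this way was not counted at either time. Of all tested genes 25.0% were called higher and 27.8% lower at 6 h. Since the rise at 6 h chose the genes, these values are a description and no test of them is given. CCL2 and IL1B were too low to test. At 24 h, by contrast, the responses came from libraries that the choice at 6 h did not use: 5 of the 8 genes were still higher, none was lower and 3 did not pass, against 27.5% called higher and 28.6% called lower over all genes. CXCL2 and CXCL3, which did not pass, were tested only because their NXP800 libraries of 6 h passed the filter on low counts. Nothing is read from their lack of a call. The 24 h libraries alone would not have kept CXCL8, CXCL1 or IL6 either. The genes still higher were CXCL8, CXCL1, IL11, LIF and PTGS2, with folds from 1.81 (LIF) to 3.45 (CXCL8). The median log2 fold change of the 8 genes was 2.71 at 6 h and 1.28 at 24 h, while that of all genes was -0.046 and -0.0033.

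CXCL8, the main neutrophil chemokine, had the largest response. Its DMSO libraries held 55, 49 and 61 counts at 6 h and the NXP800 libraries 1742, 2420 and 1400. Scaled to library size, the level went from 1.71 ± 0.156 to 56.8 ± 15.8 (SD, n = 3), a log2 fold change of 5.05 (SE 0.25). At 24 h CXCL8 had 9, 8 and 7 counts in DMSO and 41, 37 and 10 in NXP800. The groups did not overlap at 24 h, although the third NXP800 library exceeded the highest DMSO library by 1 count. The fold at 24 h was 3.45 (95% interval 1.60 to 7.41, edgeR adjusted p = 0.00805). Without both libraries numbered 2 at 24 h, an alternative added after the counts were seen, the log2 fold change was 1.62 and the call was lost (edgeR adjusted p = 0.0833). The level of CXCL8 under NXP800 at 24 h, 0.944 ± 0.550 CPM, was below that of DMSO at 6 h.

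CXCL1, CXCL2 and CXCL3 encode the closely related GRO chemokines, and their transcripts are near-identical copies, so reads may have been split or lost between them in a way that the counts do not show. CXCL1 had 41, 39 and 45 counts in DMSO at 6 h and 229, 260 and 181 in NXP800. At 24 h its libraries held 2, 7 and 1 counts in DMSO and 4, 18 and 8 in NXP800. The DMSO and NXP800 ranges thus overlapped at 24 h, where they had been apart at 6 h, although each NXP800 library held more counts than the DMSO library of the same number. CXCL1 was 5.26-fold higher at 6 h (log2 2.39, SE 0.26) and 2.78-fold at 24 h (95% interval 1.14 to 6.78, edgeR adjusted p = 0.0487). That call was lost when any of 9 of the 12 libraries was left out, with adjusted p from 0.0509 to 0.328 and a log2 fold change of 0.79 at the highest of these, without replicate 2 of NXP800 at 24 h. The 3 libraries whose removal kept the call were replicate 2 of DMSO and replicate 1 of NXP800 at 24 h and replicate 3 of NXP800 at 6 h. With the replicate number as a block, the log2 fold change of CXCL1 at 24 h was 1.47 (edgeR adjusted p = 0.0134).

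CXCL2 had 6, 7 and 8 counts in DMSO at 6 h and 42, 37 and 23 in NXP800. At 24 h the counts were 2, 7 and 3 in DMSO and 3, 6 and 4 in NXP800. At 24 h the NXP800 counts of CXCL2 lay within the DMSO range, with at most 7 counts in any library, so nothing is read from this. Its fold was 4.71 at 6 h (log2 2.24, SE 0.36) and 1.03 at 24 h (95% interval 0.448 to 2.35, edgeR adjusted p = 0.960). The upper end of the 24 h interval was below the 6 h value, but the 6 h value chose the gene, so this is a description.

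CXCL3 was the lowest of the tested genes, with 2, 3 and 8 counts in DMSO and 16, 14 and 20 in NXP800 at 6 h. At 24 h it had 0, 10 and 2 counts in DMSO and 2, 4 and 0 in NXP800. Only the 6 h groups were apart, and at 24 h the single highest value was in a DMSO library. The log2 fold change of CXCL3 was 1.89 (SE 0.64) at 6 h and -1.03 (SE 0.98, edgeR adjusted p = 0.389) at 24 h, with a sign that turned to 0.84 without the second DMSO library of 24 h. With the counts of CXCL1, CXCL2 and CXCL3 summed into 1 feature, so that a split among the copies does not matter, the log2 fold change was 2.34 (SE 0.30) at 6 h and 0.45 (SE 0.52, edgeR adjusted p = 0.485) at 24 h. The summed GRO chemokines were thus not called at 24 h.

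CCL2, which attracts monocytes, had 2 counts in the first NXP800 library of 6 h and 0 in the other 11 libraries. IL1B, the fever cytokine of the IL-1 family, had 1, 0 and 3 counts in NXP800 at 6 h, 0, 2 and 0 in NXP800 at 24 h, and 0 in all DMSO libraries. Neither gene went above 3 counts, the limit that a count of 0 allows (0.0911 to 0.103 CPM per library, covering counting error only), so no fold is given.

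IL6, the founding cytokine of the gp130 family, had 12, 7 and 14 counts in DMSO at 6 h and 122, 111 and 71 in NXP800. At 24 h there were 0, 6 and 1 counts in DMSO and 1, 14 and 3 in NXP800. In both 24 h groups the library numbered 2 held most of the IL6 counts, and the groups overlapped. The fold was 8.97 at 6 h (log2 3.17, SE 0.45) and 2.37 at 24 h (95% interval 0.613 to 9.13, edgeR adjusted p = 0.264). NXP800 held more IL6 counts than DMSO in each of the 3 pairs of libraries with the same number at 24 h. The log2 fold change at 24 h was -0.24 without replicate 2 of NXP800, 3.23 without replicate 2 of DMSO and 1.74 without both. The interval at 24 h holds both no change and the 6 h value. Of the exon bases of IL6, 9.91% are shared with IL6-AS1 or STEAP1B on the opposite strand, and the strand setting of the counting is not given in the sources used here.

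IL11, a gp130 cytokine active in bone and fibrosis, was the most abundant of these genes per length under NXP800. Its counts at 6 h were 1221, 1021 and 1780 in DMSO and 12301, 11237 and 9547 in NXP800, a rise from 41.6 ± 11.2 to 338 ± 42.6 CPM (SD, n = 3). At 24 h they were 903, 951 and 881 in DMSO and 2471, 3605 and 1981 in NXP800. The groups were apart at both times, and the NXP800 libraries of 24 h were all above the DMSO libraries of either time. The fold fell from 8.12 at 6 h (log2 3.02, SE 0.19) to 2.79 at 24 h (95% interval 2.12 to 3.67, edgeR adjusted p = 4.94e-06), whose upper end was below the 6 h value.

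LIF, which keeps stem cells undifferentiated and acts on bone cells, had a similar course. Its libraries held 1759, 1753 and 2327 counts in DMSO at 6 h and 10498, 11051 and 8505 in NXP800. At 24 h the counts were 1201, 1507 and 1359 in DMSO and 1972, 3601 and 2236 in NXP800. The second NXP800 library of 24 h was the highest of its group, and all 3 stayed above DMSO of the same time. LIF was 5.07-fold higher at 6 h (log2 2.34, SE 0.17) and 1.81-fold at 24 h (95% interval 1.42 to 2.32, edgeR adjusted p = 0.000385). LIF-AS1 and LIF-AS2 on the opposite strand share 4.37% of its exon bases.

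PTGS2, at chr1:186671791-186680423 on the minus strand, had 244, 188 and 216 counts in DMSO at 6 h and 3341, 4196 and 2717 in NXP800. At 24 h it had 74, 69 and 96 counts in DMSO and 196, 274 and 158 in NXP800. The groups were apart at both times, but the NXP800 libraries of 24 h (6.70 ± 1.79 CPM) covered the level of DMSO at 6 h (6.74 ± 0.915 CPM, SD, n = 3). The fold was 15.5 at 6 h (log2 3.96, SE 0.18) and 2.49 at 24 h (95% interval 1.80 to 3.44, edgeR adjusted p = 9.69e-05). The antisense gene PACERR shares 3.99% of the PTGS2 exon bases.

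**Figure D2:**
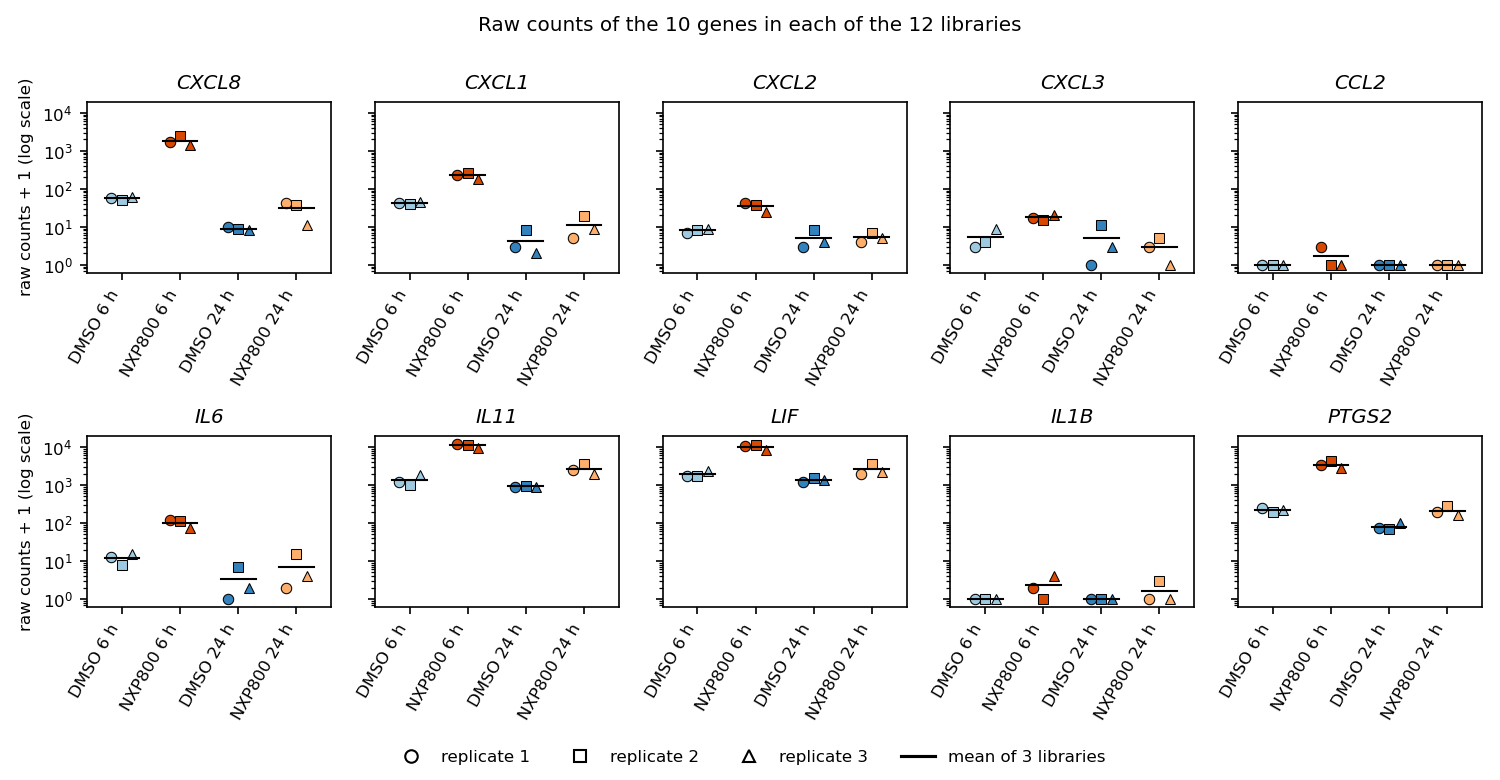
Raw counts of the 10 genes in the 12 libraries, with 1 added so that 0 can be drawn; the y axis is logarithmic, each symbol is 1 library, its shape gives the replicate number and the line is the mean of the 3 libraries. In 8 genes the 3 NXP800 libraries of 6 h lie above all DMSO libraries of 6 h, while at 24 h the groups stay apart in CXCL8, IL11, LIF and PTGS2. The rise at 6 h chose the genes, and the share of all tested genes with groups apart was not counted at either time, so this is a description.

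Set side by side, the 24 h response was the smaller in all 8 tested genes. In 6 of them, namely CXCL8, CXCL2, CXCL3, IL11, LIF and PTGS2, the upper end of the 95% interval at 24 h was below the value at 6 h. That comparison leaves out the error of the 6 h value, which chose the genes, so it too is a description. CXCL2 and CXCL3 were tested only through their NXP800 libraries of 6 h, so nothing is read from their place among the 6. For CXCL3 the log2 intervals of the times overlapped (0.53 to 3.25 at 6 h and -3.11 to 1.05 at 24 h). The difference between the log2 responses, 24 h minus 6 h, was -3.26 (95% interval -4.80 to -1.72) for CXCL8, -2.64 (-3.26 to -2.03) for PTGS2, -1.54 (-2.09 to -0.996) for IL11 and -1.48 (-1.98 to -0.99) for LIF. For CXCL1 it was -0.92 with an interval from -2.52 to 0.68, and for IL6 -1.92 with an interval from -4.45 to 0.61, so in neither gene did the counts separate the times. The 6 h values that chose the genes enter this difference and favour a smaller response at 24 h, so it is a description, and nothing is read from the 5 of the 8 genes that were called as smaller at 24 h beside 13.8% of all genes. With the replicate number as a block there were 6, CXCL3 being the one added (log2 difference -2.94, against -2.92 without the block). The share of all genes with the block was not counted.

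**Figure D3:**
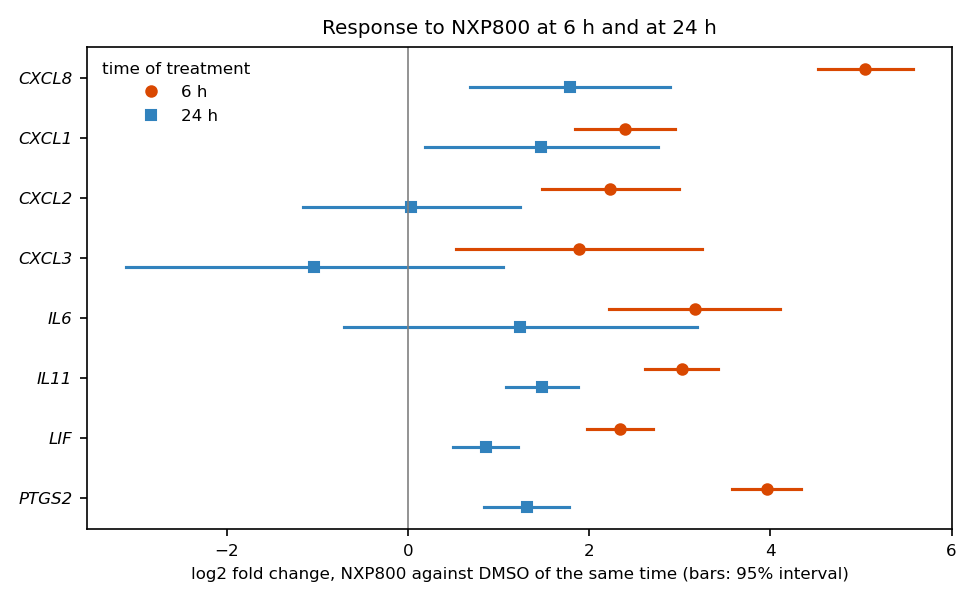
Log2 fold change of NXP800 against DMSO at 6 h (circles) and 24 h (squares) for the 8 tested genes, with 95% intervals as bars and 0 marked by the grey line. The value at 24 h lies left of that at 6 h in all 8 genes, and the 24 h bars of CXCL2, CXCL3 and IL6 cross 0.

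The levels in DMSO differed between the times too. In 7 of the 8 tested genes the mean CPM of DMSO was lower at 24 h than at 6 h, from 1.71 to 0.270 for CXCL8, from 1.30 to 0.112 for CXCL1 and from 0.342 to 0.0787 for IL6, and it was nearly level for CXCL3 (0.134 and 0.135). In 6 of the 8 the mean of NXP800 at 24 h was below the mean of DMSO at 6 h, the exceptions being IL11 (85.9 against 41.6 CPM) and LIF (83.1 against 60.6 CPM). The library numbered 2 held the highest NXP800 count of 24 h in 7 of the 8 genes and the highest DMSO count in 6.

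Per kilobase of exon, the NXP800 libraries of 6 h ordered the genes as IL11 (126 ± 15.9 CPM per kilobase), LIF (79.4 ± 10.5), CXCL8 (22.0 ± 6.10), PTGS2 (19.1 ± 4.11), CXCL1 (5.03 ± 0.888), CXCL2 (0.746 ± 0.216), IL6 (0.719 ± 0.190) and CXCL3 (0.230 ± 0.0426). CXCL8 and PTGS2 differed by less than their spread, as did CXCL2 and IL6. In DMSO at 6 h IL11 and LIF were level at 15.6 CPM per kilobase, and PTGS2 (1.23 ± 0.167) stood above CXCL8 (0.662 ± 0.0603), an order that NXP800 at 6 h did not keep.

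The genes whose log2 CPM followed the mean profile of the 8 tested genes most closely over the 12 libraries were CRY1 (Pearson's r = 0.996), DMTF1 (0.991), MOSMO (0.987), GORAB (0.982) and TRIO (0.981), out of 12035 candidates. At 6 h all 5 had smaller responses than the tested chemokines, but at 24 h CXCL2 (log2 0.038) changed less than any of the 5. The clock repressor CRY1, for example, changed by 0.88 (log2) at 6 h and by 0.20 at 24 h. Among the 8 genes themselves, r with the mean profile of the others ran from 0.798 (CXCL3) to 0.970 (IL6). An r of at least 0.95 with the mean profile was found for 111 of the candidates, so the 5 named genes are not set apart. The points share the 4 groups, and r is given as a description.

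NF-kB drives many of these genes in other settings, and its own factors and feedback targets were read from a list of 18. At 6 h 14 of them rose and 2 fell (77.8% and 11.1%, median log2 fold change 0.69), against 25.0% and 27.8% of all genes. The largest rises were of the NF-kB targets TRAF1 (log2 3.20, SE 0.32), a signalling adaptor, BIRC3 (1.65, SE 0.12), an inhibitor of apoptosis, and NFKBIZ (1.32, SE 0.31), a nuclear cofactor that acts on IL6. TNFAIP2 (-0.72, SE 0.09) and BCL3 (-0.32, SE 0.12) fell. At 24 h 4 rose and 6 fell (22.2% and 33.3%, median -0.041), against 27.5% and 28.6% of all genes. BIRC3 was then lower (log2 -0.76, SE 0.22, edgeR adjusted p = 0.00685), as were BCL3 (-1.03, SE 0.12) and REL (-0.44, SE 0.14). The inhibitors TNFAIP3 (0.52, SE 0.19) and NFKBIB (0.34, SE 0.06) and the subunit RELA (0.33, SE 0.07) were higher at 24 h, as they were at 6 h. At that time TRAF1 (0.26, SE 0.56) and NFKBIZ (-0.19, SE 0.37) did not pass. Scaling by library size alone left 3 of the 6 lower calls at 24 h. Under that scaling the median log2 fold change of all genes at 24 h was 0.0859, against -0.0033 in the main fit. The share of all genes called lower under it was not counted, so the loss is not particular to this list.

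The list of AP-1 and C/EBP factors that act on cytokine promoters held 12 genes. Of these, 10 were higher at 6 h (median log2 fold change 1.04) and 9 at 24 h (median 0.85), with 1 lower at each time. The shares higher were 83.3% and 75.0%, against 25.0% and 27.5% of all genes, and the share lower was 8.33%, against 27.8% and 28.6%. ATF3, a stress-induced member of the ATF family, was 13.1-fold higher at 6 h and 5.31-fold at 24 h (edgeR adjusted p = 1.17e-06). CEBPB, which binds many cytokine promoters, was 5.69-fold and 4.86-fold higher, and CEBPG, its partner, 3.79-fold and 2.89-fold. CEBPA was lower at 6 h (log2 -0.51, SE 0.13) and higher at 24 h (0.86, SE 0.12). CEBPD, a partner of CEBPB in inflammation, was higher at 6 h (0.46, SE 0.16) and lower at 24 h (-0.51, SE 0.16).

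Among 34 other cytokines and chemokines, 15 had enough counts to test. At 6 h 9 rose and 3 fell (median 1.29), and at 24 h 6 rose and 4 fell (median 0.46). The 9 and 6 of 15 higher compare with 25.0% and 27.5% of all genes, and the 3 and 4 lower (26.7% at 24 h) with 27.8% and 28.6%. Scaling by library size alone, with the shift of all genes given above, left 2 lower calls at 24 h. TSLP, an epithelial alarmin, rose at both times, from 13, 11 and 6 counts to 258, 215 and 233 at 6 h (22.8-fold) and from 10, 15 and 11 to 103, 181 and 113 at 24 h (10.3-fold). CSF2, the colony factor GM-CSF, rose 5.62-fold at 6 h and did not pass at 24 h (log2 -0.055, SE 0.43). TNFSF15 had 0, 3 and 0 counts in DMSO and 19, 21 and 16 in NXP800 at 6 h. IL24 was higher at both times (4.45-fold and 3.82-fold), as was IL23A (3.59-fold and 3.53-fold). At 24 h IL23A had 2, 4 and 1 counts in DMSO and 9, 13 and 5 in NXP800. CSF1, the macrophage colony factor, fell at 6 h (log2 -1.13, SE 0.14) and at 24 h (-0.34, SE 0.13). The membrane-bound chemokine CX3CL1 fell at 24 h (log2 -1.99, SE 0.14), and MIF and TNFSF9 were lower at both times. The 19 untested genes reached at most 23 counts in any library, TNF at most 6.

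Of 19 receptors and soluble antagonists, 11 were tested. At 6 h 5 rose and 1 fell, and at 24 h 5 rose and 3 fell. That is 45.5% higher at each time, against 25.0% and 27.5% of all genes, and 9.09% and 27.3% lower, the latter near the 28.6% of all genes. The shared subunit IL6ST rose 2.01-fold at 6 h and 1.65-fold at 24 h, and IL6R 1.84-fold and 1.62-fold, whereas IL11RA, the private receptor of IL11, fell at both times (log2 -0.95, SE 0.26, and -1.81, SE 0.28). IL1RAP, the accessory chain of the IL-1 receptor, rose at 6 h (log2 1.19, SE 0.17) and at 24 h (0.62, SE 0.18). The prostaglandin E2 receptors PTGER2 (log2 -1.19, SE 0.28) and PTGER4 (-0.82, SE 0.19) fell at 24 h and PTGER1 rose (1.11, SE 0.27). CXCR1 and CXCR2, through which CXCL8 acts, did not exceed 1 count in any library.

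In the pathway of PTGS2, 14 of 16 genes of prostanoid synthesis and turnover were tested. At 6 h 2 rose and 6 fell (median -0.18), and at 24 h 2 rose and 7 fell (median -0.22), or 42.9% and 50.0% lower against 27.8% and 28.6% of all genes, and 14.3% higher at each time against 25.0% and 27.5%. Scaling by library size alone, with the same shift of all genes, left 4 lower calls at 24 h. PTGES, the inducible prostaglandin E synthase that works beside PTGS2, fell from 6.19 ± 0.365 to 1.99 ± 0.527 CPM at 6 h and from 11.8 ± 2.89 to 2.53 ± 0.998 at 24 h (log2 -2.22, SE 0.23, edgeR adjusted p = 6.47e-07). PTGIS, the prostacyclin synthase, fell at 6 h (log2 -1.71, SE 0.46). The reductase CBR1 fell at both times (-0.77, SE 0.10, and -0.40, SE 0.10), as did TBXAS1, the thromboxane synthase (-0.67, SE 0.10, and -1.04, SE 0.10). The prostaglandin transporter SLCO2A1 rose 1.77-fold at 6 h and fell at 24 h (log2 -0.60, SE 0.14), and the phospholipase PLA2G4C rose at both times, 1.97-fold and 3.90-fold. At 24 h the prostaglandin-degrading enzyme HPGD fell (log2 -1.29, SE 0.53), from 11, 10 and 5 counts to 1, 7 and 3, and the exporter ABCC4 rose (0.19, SE 0.07). PTGS1, the constitutive cyclooxygenase, had at most 5 counts.

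For IL-1 processing, 6 of 10 genes were tested, with 2 higher and 2 lower at each time, shares of 33.3% that lie near those of all genes (25.0 to 28.6%). CASP4 and GSDME, a caspase and a pore protein, rose at 6 h (log2 0.53, SE 0.09, and 0.42, SE 0.11) and at 24 h (0.67, SE 0.09, and 1.45, SE 0.11). GSDMD and the adaptor PYCARD fell at both times. CASP1, which cleaves the IL-1 precursor, had at most 1 count. Of 13 tested genes that govern the decay of cytokine mRNA, 5 rose and 3 fell at 6 h and 2 rose and 4 fell at 24 h. The shares higher were 38.5% and 15.4%, against 25.0% and 27.5% of all genes, and the shares lower 23.1% and 30.8%, near the 27.8% and 28.6% of all genes. DUSP1, a phosphatase that limits p38 signalling to these mRNAs, rose 4.94-fold at 6 h and 1.96-fold at 24 h, and ZFP36L1, which destabilises AU-rich mRNAs, 2.25-fold and 1.41-fold. ELAVL1, which stabilises them, was lower at both times (log2 -0.48, SE 0.07, and -0.43, SE 0.07). ZC3H12C, of a family of RNA-cleaving enzymes, rose at 6 h (1.12, SE 0.09), and ZFP36L2 (-0.54, SE 0.07) and TIA1 (-0.21, SE 0.08) fell. At 24 h the AU-rich binding proteins HNRNPD (-0.51, SE 0.10) and KHSRP (-0.41, SE 0.06) fell. ZFP36 was listed at 0 in all 12 libraries, which is not read as absence, since the strand setting and overlap mode of the counting are not given in the sources used here. With the replicate block, 5 genes of this list fell at 6 h and 7 at 24 h. The share of all genes called lower with the block was not counted, so these numbers cannot be set against the shares above.

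Of 13 genes in JAK-STAT signalling, on which IL6, IL11 and LIF act, 3 rose and 4 fell at 6 h and 3 rose and 5 fell at 24 h. The shares higher (23.1% at both times) and lower (30.8% and 38.5%) compare with 25.0% and 27.5% and with 27.8% and 28.6% of all genes, and at 6 h they lie near them. SOCS2, a feedback inhibitor, rose at both times (log2 1.30, SE 0.11, and 1.46, SE 0.11), and PIM1, a kinase and STAT target, at 6 h (1.38, SE 0.13). SOCS3, the feedback inhibitor of gp130, fell at both times (log2 -0.53, SE 0.08, and -0.82, SE 0.08), and STAT3, the main transducer of gp130, at 24 h (-0.85, SE 0.10). CISH, another inhibitor of the family, fell at 6 h (-1.03, SE 0.17). The kinase JAK2 rose at both times (0.32, SE 0.12, and 0.37, SE 0.12) and JAK1 at 24 h (0.23, SE 0.07), while the STAT3 inhibitor PIAS3 fell at both (-0.56, SE 0.08, and -0.51, SE 0.08).

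**Figure D4:**
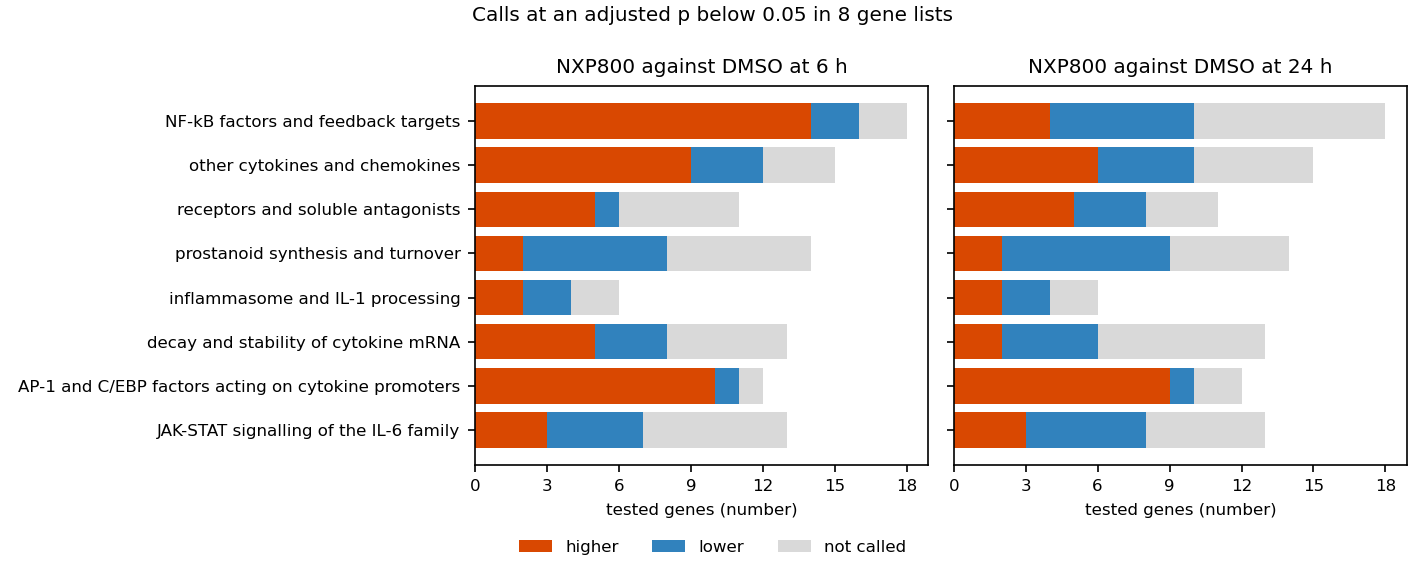
Number of tested genes called higher, lower or not called (adjusted p below 0.05) in 8 gene lists, at 6 h on the left and at 24 h on the right. In the NF-kB list the higher calls go from 14 of 18 at 6 h to 4 at 24 h, and in the AP-1 and C/EBP list from 10 of 12 to 9.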

How the data were processed

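Polyadenylated RNA was taken from HOS-MNNG cells and 12 libraries were sequenced on DNBSEQ with a strand-specific kit. According to the submitters' processing notes and the study's methods, the authors trimmed reads with fastp 0.20.1, aligned them with STAR 2.7.5a to hg38 (GRCh38.p14) and counted read pairs per gene symbol with HTSeq 0.12.4, and the deposited values are raw counts. The strand setting of the counting is not given in the sources used here. Pairs that named no gene (8.02 to 12.2% per library) were left out. Samples were grouped by the labels' treatment and time, and the concentration is from the study's methods.

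Counts of all 43236 genes entered 1 model of 4 groups (edgeR 4.0.16, limma 3.58.1, R 4.3.3) with TMM scaling and filterByExpr (minimum count 10), which left 15979 genes, and the quasi-likelihood test with Benjamini-Hochberg adjustment was used at 0.05. The filter kept CXCL2 and CXCL3 only through the NXP800 libraries of 6 h, and the 24 h libraries alone would not have kept CXCL8, CXCL1 or IL6. CPM used TMM-scaled library sizes, and levels per kilobase used the GENCODE union of exons. The fitting was tested on simulated data. Alternatives were DESeq2 size factors, library size only, no filter, a fit to 1 time point, a replicate block, fits without each single library, the DESeq2 1.42.0 Wald test, an adjusted p below 0.01, and CXCL1, CXCL2 and CXCL3 summed. Leaving out both libraries numbered 2 at 24 h was added after the counts were seen.

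The 10 genes and the pathway and marker lists were chosen with earlier results of these data known. The text names all 10, the 3 largest called changes each way in a pathway list at each time, the genes of highest count where none was called, and the 5 genes (mean log2 CPM of at least 1) closest in profile. Untested genes of a list, and the cell-type markers, were named after their counts were seen. Replicates differed by more than sampling noise (chi-square per degree of freedom 7.36 to 26.3), so none was counted as a duplicate. Nothing in the labels says that they were separate cultures, so p-values measure the spread between these samples, which may be technical. Same-numbered samples deviated together (r from 0.159 to 0.329 over genes, against -0.268 to 0.058 for different numbers). In the replicate block the numbers were therefore taken to pair the samples, a pairing that comes from the data and not from the labels. The printed intervals and p-values are from the fit without the block, and so do not use the pairing, except where the block is named.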

Additional observations from a re-analysis of the deposited data

Results flagged for a closer look

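In 5 of the 8 tested genes the difference between the responses to NXP800 at the 2 times (24 h minus 6 h, log2) was past the threshold used over all genes, which is why they are listed. Of all tested genes 13.8% were called with a lower value at 24 h than at 6 h for this difference. It was -3.26 for CXCL8, -2.20 for CXCL2, -1.54 for IL11, -1.48 for LIF and -2.64 for PTGS2. The genes were chosen for their rise at 6 h, and those 6 h values enter the difference and favour a smaller response at 24 h, so the values are a description and are not evidence that the response differed. CXCL2 passed the filter on low counts only through the NXP800 libraries of 6 h. Its difference was -1.83 without both libraries numbered 2 at 24 h, where the call was lost. The call was also lost in 6 of the 12 fits with 1 library left out.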

How the results depend on the processing

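Over the alternatives run, 437 of 476 log2 fold changes of the 8 genes kept their direction and their side of the threshold. Of the counts of called genes, 78 of 79 for the 8 genes and 610 of 640 for the gene lists stayed within 1.5 times their value. In the lists, the lower calls among other cytokines at 24 h were 2 without replicate 2 of DMSO or replicate 1 of NXP800 at 24 h, and those of the AP-1 and C/EBP list at 24 h were 0 without replicate 2 or 3 of DMSO or replicate 2 of NXP800. With only the 6 libraries of 24 h in the fit, 3 genes were higher at 24 h in place of 5, since CXCL8 and CXCL1 were too low to pass the filter there. With 1 library left out, the number of genes higher at 24 h ran from 4 to 5. The replicate block left 5 genes higher at 24 h, and it changed no call of the 8 genes other than the difference for CXCL3 (log2 -2.94). The shares of all genes called in these alternative fits were not counted. For IL6 at 24 h the block gave a log2 fold change of 1.23 (edgeR adjusted p = 0.0992). It gave 1.79 for CXCL8 (edgeR adjusted p = 0.000483) and 1.47 for CXCL1 (edgeR adjusted p = 0.0134) at that time.

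The sign turned in 8 fits of genes with few counts at 24 h. For CXCL2 at 24 h the log2 fold change was -0.28, -0.12 and -0.22 without replicate 1 or 3 of DMSO or replicate 2 of NXP800, and it ran from -0.28 to 0.69 with 1 library left out. For CXCL3 at 24 h it ran from -1.91 to 0.84, and was 0.45 with the 3 GRO chemokines summed. For IL6 at 24 h it ran from -0.24 to 3.23. The difference of 24 h minus 6 h reached 0.17 for CXCL1 and 0.062 for IL6 without the second DMSO library of 24 h, from lows of -1.63 and -3.44. CXCL1, CXCL2, CXCL3 and IL6 held at most 18 counts in any library of 24 h. The cause of these changes was not tested.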
